A study of Mus musculus with 4 samples.

Results

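The genes described here carry the enzymes and transporters of folate and one-carbon metabolism, and they were chosen by name from a list of 34 gene symbols. Of these, 32 were among the 19465 genes measured by the probe panel, and Mthfs and Gcsh were not. They were measured in 4 coronal brain sections from male wild-type C57BL/6J mouse offspring at postnatal day 21, cut from formalin-fixed, paraffin-embedded tissue and profiled with Visium, in which paired probes report RNA within an array of spots. Each spot covers a small area that can hold several cells. The mothers received a diet with moderate folic acid (MF, 2 mg per kg) or high folic acid (HF, 20 mg per kg) before mating and through pregnancy and lactation, and each diet had 2 sections, described by the study as biological replicates. All offspring were unmodified males of a single inbred strain, and the diet was given to the mother. Levels are given as counts of unique molecular identifiers (UMIs) per 1000000 UMIs (CPM), and because genes have different numbers of probes, each gene was compared only with itself across places and sections.

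Folate enters cells through a receptor, Folr1, and through carriers such as Slc19a1 and Slc46a1, is held inside them by the addition of glutamate residues, and then carries one-carbon units between serine, glycine and formate for the making of thymidylate and purines. One of these units remethylates homocysteine to methionine, from which S-adenosylmethionine, the methyl donor of the cell, is made. In the brain the choroid plexus, the secretory epithelium of the ventricles, is known as the site where folate passes from blood into cerebrospinal fluid, and Folr1 is the receptor that carries it.

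The sections held 34983708 to 90098381 UMIs, and 3197 to 3598 spots were kept in each, with medians of 9286 to 23543.5 UMIs per spot. Section totals correlated with Pearson's r of 0.9928 to 0.9985 across genes, which are not independent replicates. MF replicate 1 stood apart in depth, with a median of 23543.5 UMIs per spot against 9286 to 12074.5 in the other sections. Clusters of spots, built without the members, were named from markers as cortex, hippocampus, thalamus, hypothalamus, striatum, white matter and choroid plexus, which entered the tests, and as meninges, medial habenula and ependyma, which did not. The choroid plexus held only 46 spots (11 and 10 in MF, 12 and 13 in HF), and none of the 13 choroid plexus markers was at 0 there, while the cortex held 4104 spots. In 1005 spots no name could be given.

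Of the 32 genes, 3 had a mean above 100 CPM over the whole section (Ahcyl1, Ahcyl2 and Mat2b), 18 lay between 10 and 100 CPM, 9 between 1 and 10 CPM, and 2 below 1 CPM. The last were Bhmt with 32 UMIs and Ftcd with 3 UMIs over all sections. Ftcd, which degrades histidine to feed the folate pool and is known as a liver enzyme, was not detectable beyond that at this depth. The share of spots with at least 1 UMI had a median of 20.4% over the members, and 7.54% when each spot was thinned to 5000 UMIs, so for most members a single spot says little and levels were taken over regions.

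**Figure D1:**
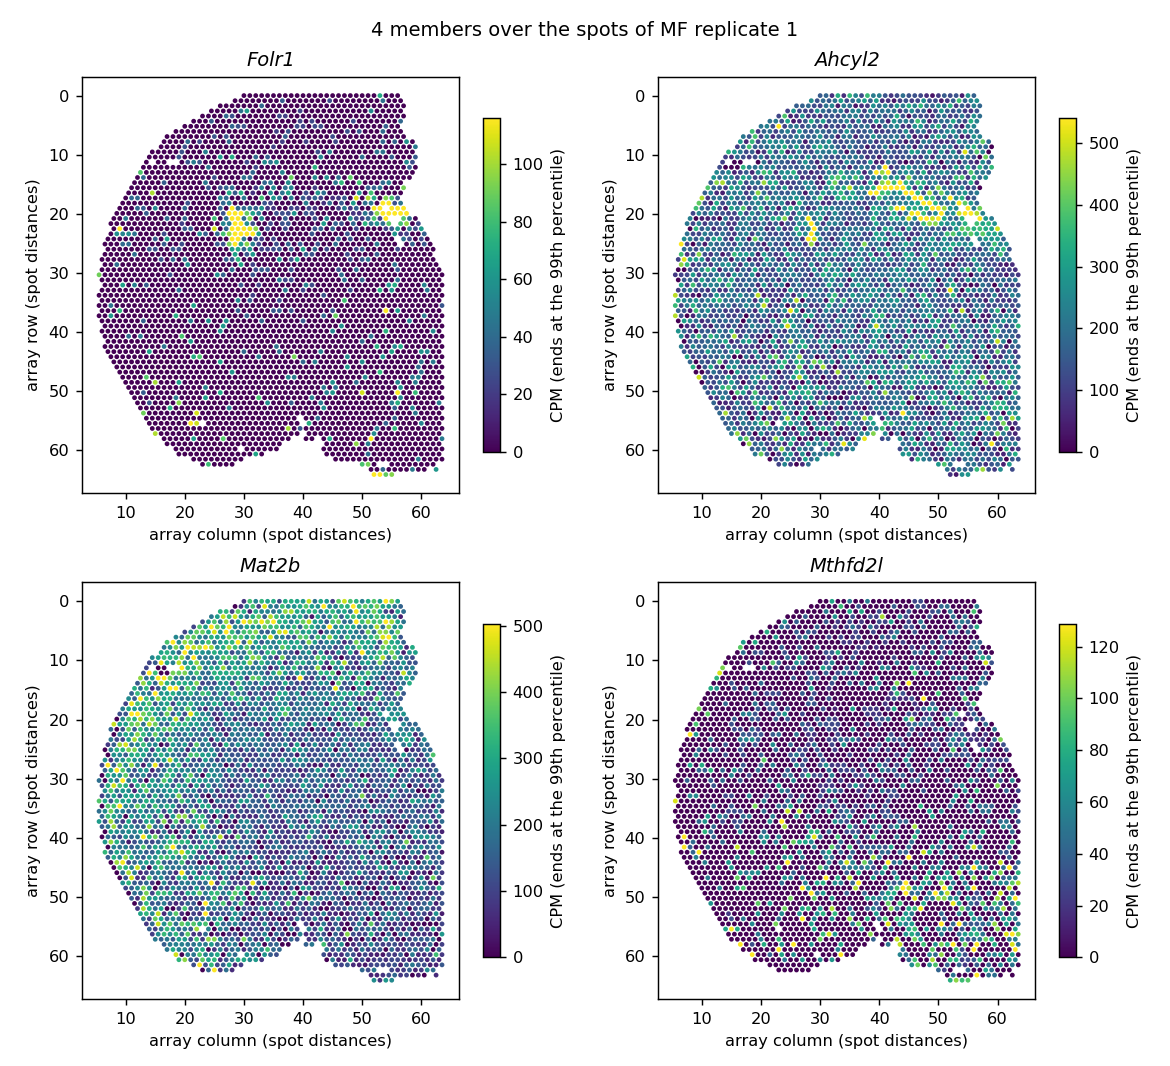
Level of Folr1, Ahcyl2, Mat2b and Mthfd2l in each spot of the section of MF replicate 1, in CPM with colours ending at the 99th percentile, against array column and row in spot distances. Folr1 sits in a few compact patches, Ahcyl2 in those patches and in a curved hippocampal band, Mat2b along the cortical rim, and Mthfd2l mostly in the lower, hypothalamic part.

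The deposited table gives Moran's I for each gene, a score of how far neighbouring spots resemble each other, which moves with depth and is given as a description. Folr1 had the highest scores of the members, from 0.223 to 0.347 over the sections, and stood at the 96.9th to 98.9th percentile of all genes listed. Mat2b followed with 0.115 to 0.239, and Ahcyl1 and Ahcyl2 had 0.0579 to 0.110 and 0.0605 to 0.0953. Mthfd2l had 0.0345 to 0.0673. As the spot map shows, these are genes with different patterns rather than a common one.

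Each region was then compared with the mean of the other regions over the 4 sections, with the section as a block, and a gene was called when it was at least 1.5-fold higher at an adjusted p under 0.05. Among the 31 members tested, 10 were called in the choroid plexus, or 32.3%, where 19.4% of all 13720 genes and 18.9% of the 11724 genes not used for clustering were called. Of these 10, Bhmt passed the filter on low counts only through the choroid plexus, so its call there adds nothing. Without that region 30 members and 13657 of all genes passed the filter. The median difference there was 0.33 on the log2 scale for the members and -0.09 for all genes. In the neural regions 0 to 2 members were called, too few to set apart from the share of all genes. The cortex had 1 (9.85% of all genes), the hippocampus 2 (7.57%), the thalamus 2 (8.16%), the hypothalamus 2 (9.87%), the white matter 2 (9.3%) and the striatum 0 (6.25%). The regions were drawn from other genes of the same spots, so these tests describe how well levels separate and are not independent of the regions.

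**Figure D2:**
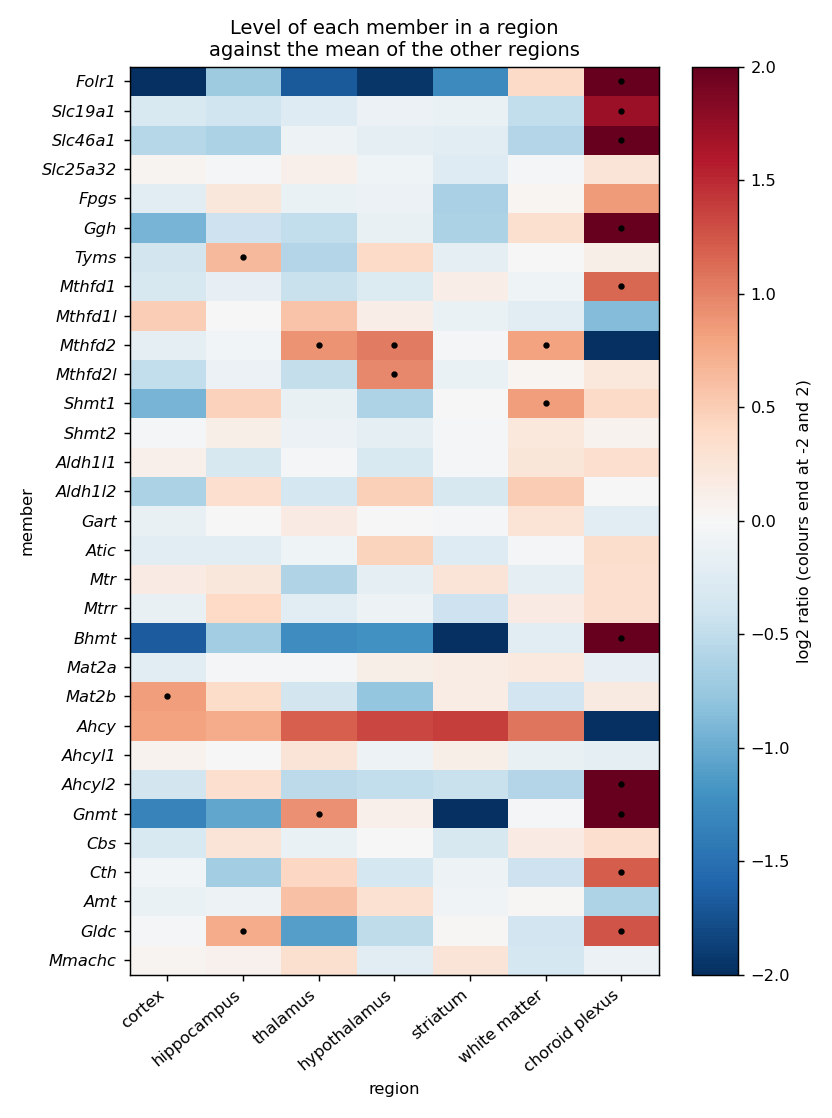
Log2 ratio of the level of each of the 31 tested members in a region to the mean of the other regions, with black dots for members called at least 1.5-fold higher (edgeR, adjusted p under 0.05). The choroid plexus column holds 10 dots and the striatum none, and the dark blue cells for Ahcy and Mthfd2 in the choroid plexus rest on 0 and 3 UMIs.

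Of the 4 members of folate uptake, 3 were called in the choroid plexus and were highest there. Folr1 (chr7:101858331-101870788, minus strand, GRCm38) reached 1064 and 998 CPM in the MF sections and 1323 and 1261 CPM in the HF sections. In the other tested regions its mean lay between 4.59 CPM in the cortex and 20.7 ± 7.4 CPM (SD, n = 4) in the white matter, and no section of these regions came near the choroid plexus. The log2 difference was 7.30 ± 0.10 (SE, n = 4 sections, adjusted p = 6.89e-38, edgeR). All 46 choroid plexus spots held Folr1 UMIs, against 1359 of 13406 other spots, and these few spots held 41.3% and 41.1% of all Folr1 UMIs in MF and 54.7% and 55.9% in HF.

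Outside the choroid plexus, Folr1 declined with distance from it. Its mean was 188 CPM in spots within 1.5 spot distances, 49.3 CPM from there to 3, 19.5 CPM from 3 to 6, 7.13 CPM from 6 to 12, and 4.96 CPM beyond 12. The summed choroid plexus markers declined over the same steps, from 218840 CPM in the choroid plexus to 31040, 8705, 3445, 1594 and 875 CPM. Folr1 UMIs per 1000 UMIs of these markers were 5.32 ± 0.44 (SD, n = 4) in the choroid plexus. The ratio was similar in the cortex (5.56 ± 0.72) and the thalamus (4.74 ± 0.53). Not every region was like this. The hypothalamus had a higher Folr1 mean than the cortex, beside lower choroid plexus markers in each section. These were 756 and 641 CPM in MF and 530 and 922 CPM in HF in the hypothalamus. In the cortex they were 777 and 814 CPM in MF and 753 and 931 CPM in HF. In the medial habenula, which lies beside the ventricle, it was 5.80 ± 0.15. The ependyma, the ciliated lining of the ventricles, had a higher ratio of 13.8 ± 4.7, with sections from 6.99 to 17.1, in only 38 spots. The part of choroid plexus RNA in the Folr1 counts of other regions was not tested.

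Slc46a1, the proton-coupled folate transporter, had 24.6 and 27.3 CPM in the MF and 37.1 and 23.2 CPM in the HF choroid plexus. Every one of these values lay above the means of the neural regions, which ran from 4.81 CPM in the hippocampus to 7.49 CPM in the hypothalamus. The log2 difference was 2.30 ± 0.28 (adjusted p = 5.59e-09). Unlike that of Folr1, its mean did not fall with distance outside the choroid plexus, with 2.89 CPM within 1.5 spot distances and 6.18 CPM beyond 12. The nearer mean rests on few counts in 18 to 28 spots per section. Its sections had 1.12 and 0 CPM in MF and 8.05 and 2.37 CPM in HF. HF replicate 1 went the other way, with 5.88 CPM beyond 12.

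Slc19a1, the reduced folate carrier, was also highest in the choroid plexus, at 89.7 and 70.1 CPM in MF and 70.9 and 116 CPM in HF. It differed less from the rest than Folr1 did, with a log2 difference of 1.70 ± 0.15 (adjusted p = 8.09e-13) and 27.5 to 36.7 CPM in the other tested regions. In the meninges, the coverings of the brain, it had 62.3 ± 13 CPM, above every neural region in the mean. Slc25a32, which carries folate into mitochondria, showed no place of its own, with 13.3 to 16.2 CPM in all 7 tested regions.

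**Figure D3:**
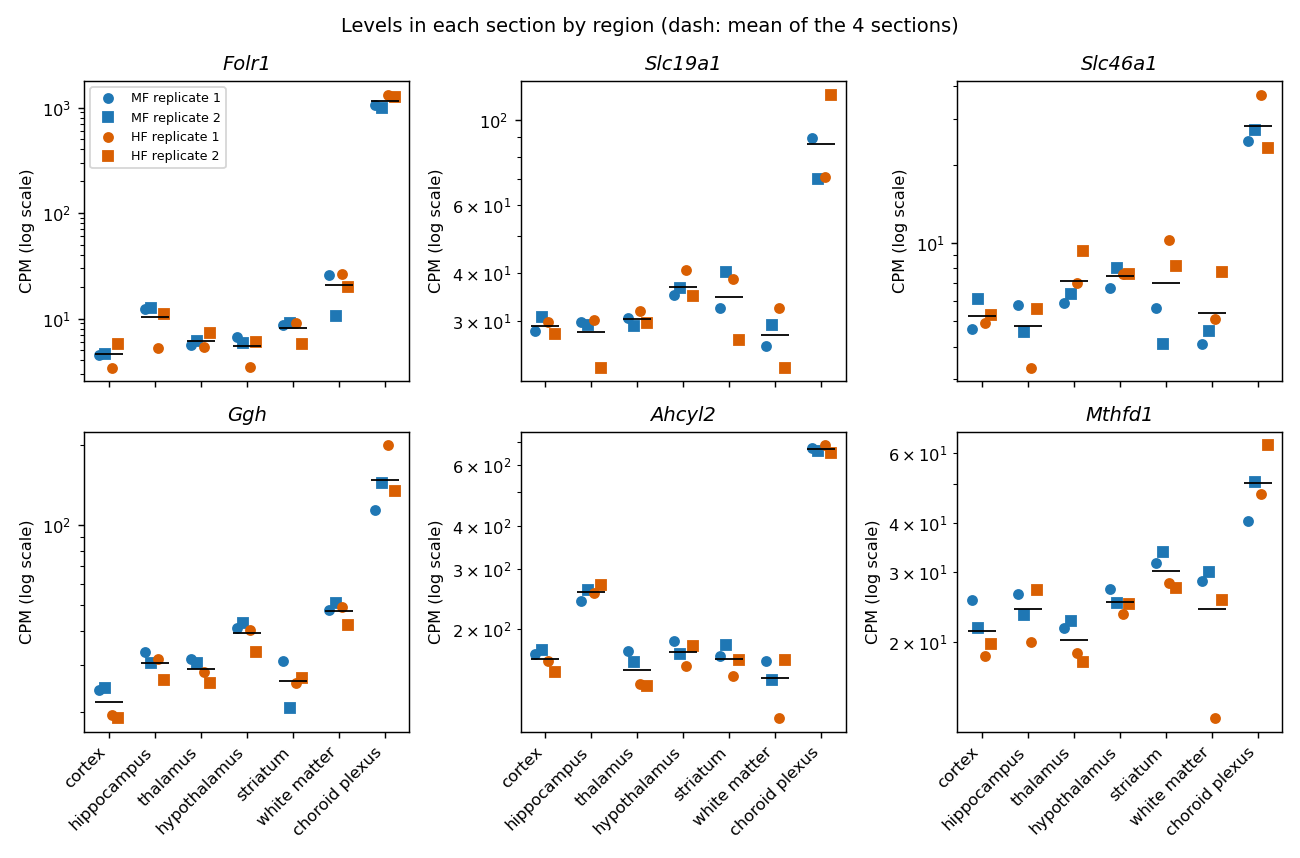
CPM of 6 members in each section by region on log axes, with circles for replicate 1, squares for replicate 2, blue for MF, orange for HF and a dash for the mean of the 4 sections. For all 6 the choroid plexus values of the 4 sections lie above those of every other region shown.

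Of the pair that controls retention, Ggh was called in the choroid plexus and Fpgs was not. Ggh (chr4:20042052-20066750, plus strand), the hydrolase that removes glutamate from folate, had 114 and 144 CPM in MF and 199 and 135 CPM in HF. The next region was white matter at 47.8 ± 3.8 CPM, and the cortex was lowest at 21.8 ± 3.0 CPM. The log2 difference of the choroid plexus was 2.31 ± 0.13 (adjusted p = 5.72e-18). Fpgs, which adds the glutamate, had a mean of 9.76 ± 5.8 CPM there against 3.95 to 6.27 CPM elsewhere, with sections too far apart for a call.

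The genes of the folate cycle itself had their highest levels in different regions. Mthfd1, the cytosolic enzyme that interconverts one-carbon folates, was called in the choroid plexus, with 40.5 and 50.7 CPM in MF and 47.2 and 62.7 CPM in HF and a log2 difference of 1.15 ± 0.19 (adjusted p = 2.71e-06). Its other regions had means of 20.2 to 30.2 CPM. The mitochondrial enzymes of the same steps lay elsewhere.

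Mthfd2l (chr5:90931117-91021368, plus strand), a mitochondrial methylenetetrahydrofolate dehydrogenase, was highest in the hypothalamus. It had 33.1 and 32.0 CPM there in MF and 30.8 and 24.2 CPM in HF, where the other neural regions had means of 11.1 to 15.9 CPM. Mthfd2, its close relative, had 18.0 and 18.0 CPM in the MF and 19.1 and 20.2 CPM in the HF hypothalamus. Their log2 differences in the hypothalamus were 0.97 ± 0.09 and 1.04 ± 0.11. For Mthfd2 the thalamus (16.6 and 14.3 CPM in MF, 13.3 and 17.2 CPM in HF) and the white matter (15.7 and 11.6 CPM in MF, 14.5 and 17.1 CPM in HF) were called too, at 0.89 ± 0.11 and 0.81 ± 0.15. Mthfd2 was at 1.86 CPM, or 3 UMIs, in the choroid plexus, which entered the mean these regions were set against. Without the choroid plexus in the fit, both genes were called in the hypothalamus and Mthfd2 was called in no other region.

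Tyms, which makes thymidylate, was called in the hippocampus, with 6.64 and 5.78 CPM in MF and 8.03 and 6.39 CPM in HF and a log2 difference of 0.64 ± 0.18. The hypothalamus had a nearly equal mean of 6.47 ± 2.3 CPM, so the order of these regions was not settled. Shmt1, the cytosolic serine hydroxymethyltransferase, was called in the white matter at 0.84 ± 0.25, although the sections there ran from 0.853 CPM in HF replicate 1, which is 1 UMI, to 8.46 CPM. The hippocampus was close, at 5.33 ± 1.0 CPM against 5.67 ± 3.4 CPM. Its mitochondrial counterpart Shmt2 was even, with 29.8 to 36.1 CPM over the tested regions.

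The remaining folate cycle genes were called nowhere. Mthfd1l ranged from 8.99 ± 7.5 CPM in the choroid plexus to 26.9 ± 2.6 CPM in the thalamus. Aldh1l1, which oxidises formyl folate and is widely used as an astrocyte marker, lay between 33.6 and 49.0 CPM in the tested regions, and reached 77.9 ± 18 CPM in a cluster led by Ndnf, Dio2 and Reln that the marker rule could not name (753 spots). Gart and Atic, of purine synthesis, had 25.3 to 42.3 CPM and 13.0 to 22.4 CPM. Aldh1l2 had 1.41 to 2.93 CPM.

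In the methionine cycle, the largest differences again lay in the choroid plexus. Ahcyl2 (chr6:29768011-29912310, plus strand), a relative of S-adenosylhomocysteine hydrolase, had 674 and 659 CPM in MF and 685 and 650 CPM in HF there, a spread of 15 CPM (SD, n = 4) around a mean of 667 CPM. The log2 difference was 2.08 ± 0.07 (adjusted p = 1.14e-24). The medial habenula (284 ± 27 CPM) and the hippocampus (256 ± 11 CPM) came next and did not separate beyond their spread, and the other neural regions had 144 to 172 CPM. Within the hippocampus, the finer cluster led by Dsp and C1ql2, which also holds the dentate granule cell marker Prox1, had 404 ± 44 CPM over 283 spots. Ahcyl1, its near relative, was instead even, from 532 ± 57 CPM in the choroid plexus to 752 ± 7.4 CPM in the thalamus, with 823 ± 57 CPM in the cluster led by Ndnf.

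Gnmt, which methylates glycine and so uses up S-adenosylmethionine, had 19.4 and 19.5 CPM in MF and 16.9 and 20.9 CPM in HF in the choroid plexus, from 30 UMIs in all. The thalamus, at 2.14 and 1.32 CPM in MF and 1.5 and 2.30 CPM in HF, was called as well. The log2 differences were 4.87 ± 0.43 (adjusted p = 1.76e-12) in the choroid plexus and 0.91 ± 0.27 in the thalamus. Gnmt was lower farther out, with 4.47 CPM within 1.5 spot distances of the choroid plexus, 1.36 CPM from there to 3 and 1.03 CPM beyond 12. Bhmt, the betaine-dependent enzyme that remethylates homocysteine, had 16 of its 32 UMIs in the choroid plexus (7.04 and 11.7 CPM in MF, 3.37 and 18.6 CPM in HF) and was called there, but no fold is given for so few counts.

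Mat2b (chr11:40679314-40695203, minus strand), the regulatory subunit of methionine adenosyltransferase, was the one member called in the cortex. Its 4 sections had 266 and 258 CPM in MF and 260 and 257 CPM in HF, and the log2 difference was 0.84 ± 0.04. The hippocampus followed with 202 ± 7.9 CPM and the hypothalamus was lowest with 113 ± 3.7 CPM. Over finer clusters it was highest in a cortical cluster led by Lamp5 and Stard8 (311 ± 10 CPM), followed by a cortical cluster led by Adam33 and Kcnh5 (307 ± 19 CPM), within their spread. The catalytic subunit Mat2a had a flatter profile, from 67.3 ± 20 CPM in the choroid plexus to 98.1 ± 8.2 CPM in the hypothalamus.

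Mtr, the methionine synthase, was lowest in the thalamus at 19.3 ± 2.0 CPM and lay between 25.1 and 34.0 CPM elsewhere. Mtrr, which reactivates it, had 9.73 to 15.5 CPM, and Mmachc, which processes cobalamin for it, had 14.0 to 20.5 CPM, with no region called for these genes. Ahcy, the hydrolase of S-adenosylhomocysteine, was low throughout, at 1.19 to 2.11 CPM in the neural regions. It had 0 of 1551862 UMIs in the choroid plexus, which allows up to 1.93 CPM, close to the levels elsewhere, so a difference was not detectable at this depth.

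Homocysteine leaves the cycle through Cbs and Cth, the transsulfuration enzymes. Cbs was called in no tested region (21.5 to 30.9 CPM), and had 55.6 ± 13 CPM in the cluster led by Ndnf. Cth was called in the choroid plexus at 1.2 ± 0.49 (adjusted p = 0.0391) on 11 UMIs, with 3.52 and 3.90 CPM in MF and 13.5 and 9.29 CPM in HF. Of the glycine cleavage system, which releases a one-carbon unit from glycine, Gldc was called in the choroid plexus (17.6 and 7.79 CPM in MF, 13.5 and 13.9 CPM in HF) and in the hippocampus (11.5 and 13.5 CPM in MF, 11.3 and 9.48 CPM in HF). Its log2 differences were 1.25 ± 0.33 and 0.74 ± 0.12. Amt had another order, from 12.0 ± 3.7 CPM in the choroid plexus to 26.7 ± 0.81 CPM in the thalamus.

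When spots were thinned to the same number of UMIs, the choroid plexus calls of Folr1, Slc19a1, Slc46a1, Ggh, Ahcyl2 and Gnmt remained. Those of Mthfd1, Gldc, Cth and Bhmt did not, nor did Tyms in the hippocampus or either white matter call. Calls were also lost when a section was left out. This held for Tyms in the hippocampus and Gnmt in the thalamus without MF replicate 1, for Shmt1 in the white matter without MF replicate 2 (0.70, adjusted p = 0.0638), for Cth in the choroid plexus without either HF section, and for Bhmt without HF replicate 2.

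Over finer clusters, the choroid plexus was the highest cluster for 10 of the 31 members other than Ftcd. A cluster of 77 spots led by Cga, a pituitary hormone subunit, and by Tmem212 and Ccdc153, known from ciliated cells, was highest for 6 (Tyms, Gart, Atic, Mtr, Mat2a and Amt). The unnamed cluster led by Ndnf, Dio2 and Reln was highest for 4 (Aldh1l1, Ahcyl1, Cbs and Gldc). Its spots were shallow, with a median of 4318 UMIs, and uneven over sections, with 109 and 183 in MF and 276 and 185 in HF. These orders are descriptions.

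Members were also set beside lists of cell type markers over 19 clusters, by Pearson's r of log2(CPM + 1) values averaged over sections, as a description, since clusters share libraries and depth. For 15 members a list reached r of 0.7, and for 8 of these it was the choroid plexus list, led by Folr1 (0.98), Bhmt (0.94) and Ggh (0.90). Slc19a1 was most like the meninges list (0.91), Aldh1l1 the endothelium list (0.85), Ahcyl1 the astrocyte list (0.71) and Mthfd1l the neuron list (0.77). Other lists passed 0.7 as well. For Aldh1l1 these were microglia (0.77), pericyte (0.77), astrocyte (0.73) and blood (0.71). For Slc19a1 they were choroid plexus (0.79), blood (0.76), pericyte (0.75) and ependyma (0.72), so the most like list does not name a cell type. With finer clusters the number with a list was 9, and the choroid plexus list was named both times for 4 members (Folr1, Bhmt, Ahcyl2 and Gnmt). The pairs of members most like each other were Folr1 and Bhmt (0.92), Ggh and Gnmt (0.89) and Bhmt and Gnmt (0.88). The values for Bhmt and Gnmt rest on few counts. Bhmt had 32 UMIs in all, 16 of them in the choroid plexus, and Gnmt had 257, 30 of them there.

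To show what lies in front of genes that were highest in the same place, promoters of 3 choroid plexus genes are printed. They run from 250 bases before to 50 bases after the start of transcription in RefSeq (GRCm38.p6), each from 5′ to 3′ on the strand of the gene. Entries were held for 7 of the 10 genes called in the choroid plexus and for 27 of the 32 members. Capitals mark matches on either strand to TAATCC, letters bound by Otx homeodomain factors, to CACGTG, an E-box, or to GGGCGG, a GC box, and matches to the same motif may overlap. The intervals are chr11:78465451-78465750 (plus strand) for Slc46a1, chr6:29768193-29768492 (plus strand) for the first of the listed starts of Ahcyl2, and chr17:46729116-46729415 (minus strand) for Gnmt.
Slc46a1: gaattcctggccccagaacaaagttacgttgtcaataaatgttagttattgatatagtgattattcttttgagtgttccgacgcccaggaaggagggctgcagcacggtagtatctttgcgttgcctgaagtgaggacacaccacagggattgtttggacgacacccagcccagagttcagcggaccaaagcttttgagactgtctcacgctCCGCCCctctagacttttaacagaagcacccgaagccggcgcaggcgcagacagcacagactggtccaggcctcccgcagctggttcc
Ahcyl2: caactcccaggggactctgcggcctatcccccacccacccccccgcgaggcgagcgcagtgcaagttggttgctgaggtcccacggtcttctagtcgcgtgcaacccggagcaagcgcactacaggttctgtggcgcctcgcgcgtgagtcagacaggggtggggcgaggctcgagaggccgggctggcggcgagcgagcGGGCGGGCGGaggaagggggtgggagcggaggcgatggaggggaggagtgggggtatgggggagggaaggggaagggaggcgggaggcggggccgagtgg
Gnmt: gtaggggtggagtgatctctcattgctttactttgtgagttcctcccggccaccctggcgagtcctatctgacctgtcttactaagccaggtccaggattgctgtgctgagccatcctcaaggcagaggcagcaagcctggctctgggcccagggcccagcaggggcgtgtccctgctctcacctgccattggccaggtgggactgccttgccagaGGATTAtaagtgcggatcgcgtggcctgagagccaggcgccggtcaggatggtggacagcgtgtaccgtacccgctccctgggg
The 3 sequences shared none of these matches as a set. Slc46a1 held 1 GGGCGG, in its reverse complement, Ahcyl2 held 2 that overlap, and Gnmt held 1 TAATCC, in its reverse complement. Of all 32851 promoters of this length, 35.7% held GGGCGG, 7.06% held TAATCC and 7.15% held CACGTG. The GC content was 53.0% in Slc46a1, 62.0% in Gnmt and 71.7% in Ahcyl2, and a match describes letters only.

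The second comparison set the HF sections against the MF sections, to ask whether the maternal folic acid dose was followed by a difference in these genes in the offspring. Over the whole section, 30 members could be tested and edgeR's quasi-likelihood test called 0 of them at an adjusted p under 0.05 and a change of at least 1.2-fold, as it called 0 of 14971 genes (0%). At an unadjusted p under 0.05 there were 2 members, or 6.67%, where 6.81% of all genes had such a p, and DESeq2 called 0 members too. Of the members, 14 had a higher and 16 a lower estimate in HF, with a median log2 difference of -0.0041. Both HF sections lay above both MF sections for 3 members, or 10% (Mmachc, Folr1 and Slc46a1), and for 19.9% of all genes. They lay below for 8 members, or 26.7% (Ggh, Mthfd2l, Ahcyl2, Mat2a, Aldh1l2, Mat2b, Shmt1 and Mthfd1), and for 19.1% of all genes. With 2 sections against 2, an exact two-sided permutation test cannot give a p below 0.333, so single values have no test of their own, and in sums over spots fewer cells and less RNA per cell cannot be told apart.

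**Figure D4:**
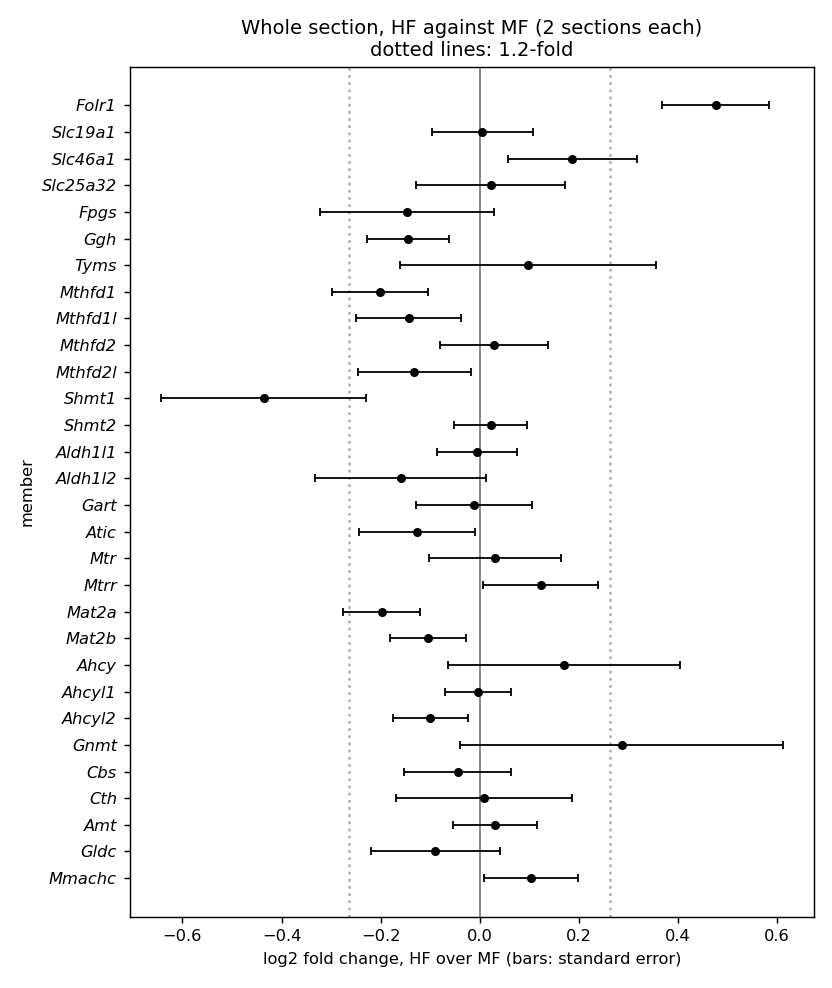
Log2 fold change of HF over MF for the 30 tested members in the whole section, with dotted lines at 1.2-fold either way. Bars show an approximate standard error derived from the F statistic of the edgeR fit. Folr1 lies farthest to the right at 0.48 and Shmt1 farthest to the left at -0.44, and no member passed the test.

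Folr1 had the smallest p of the members. It had 16.2 and 14.7 CPM in the MF sections and 20.5 and 22.8 CPM in the HF sections, so the diets did not overlap. The log2 fold change was 0.48 ± 0.11 (SE, n = 2 sections per diet, adjusted p = 0.696). Without HF replicate 1 it was 0.56 and without HF replicate 2 it was 0.37, and in both cases it was then called, together with 1166 and 840 genes in all.

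The share of choroid plexus in the sections was also higher in both HF sections. Choroid plexus spots held 0.631% and 0.605% of all UMIs in MF and 0.847% and 1.01% in HF, and the summed choroid plexus markers had 2905 and 2749 CPM over the MF and 3875 and 4295 CPM over the HF sections. Per 1000 marker UMIs, Folr1 stood at 5.59 and 5.34 in MF and 5.29 and 5.32 in HF. With the choroid plexus spots left out, Folr1 had 9.59 and 8.70 CPM in MF and 9.37 and 10.2 CPM in HF, which overlap. Without all spots within 3 spot distances of them, the values were 6.53 and 6.75 CPM in MF and 5.72 and 7.10 CPM in HF, which overlap as well. The part of choroid plexus content in the Folr1 difference was not tested.

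**Figure D5:**
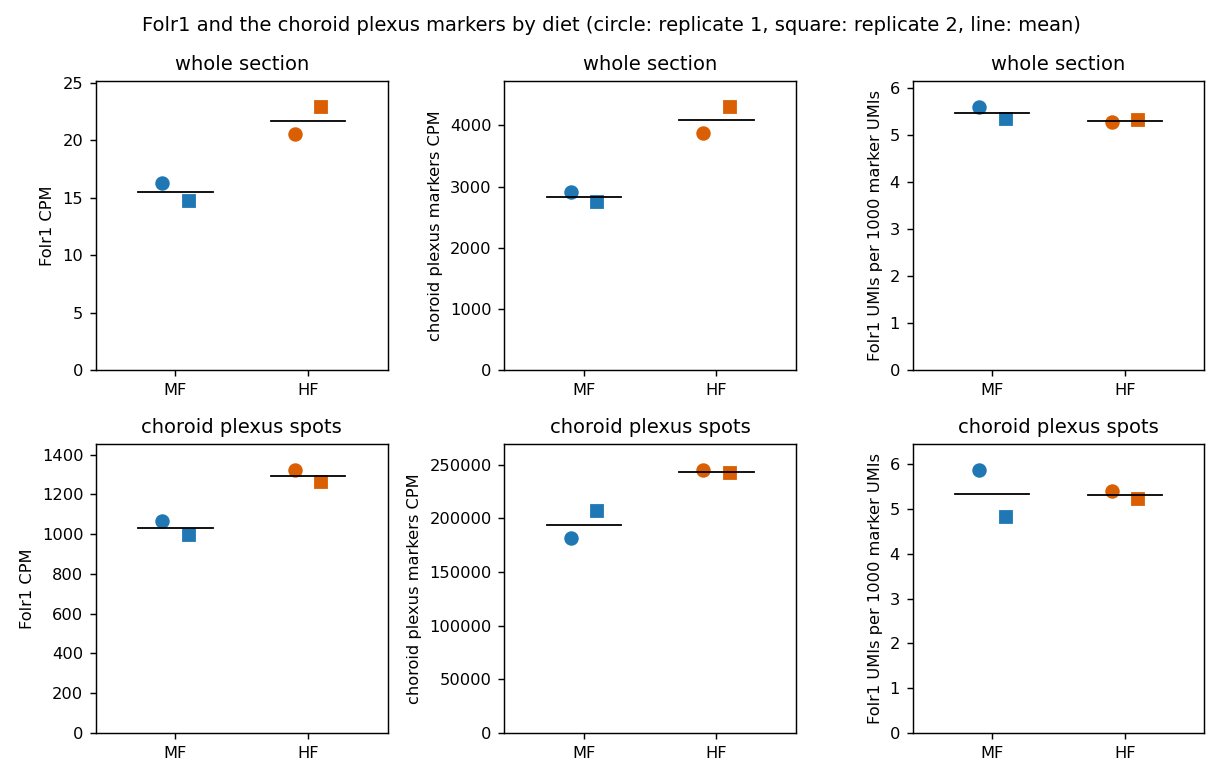
Folr1 CPM, summed CPM of the 13 choroid plexus markers, and Folr1 UMIs per 1000 marker UMIs in each section, for the whole section (top) and the choroid plexus spots (bottom), with circles for replicate 1, squares for replicate 2 and a line for the mean. The HF points lie above the MF points in the first and second columns, and the diets lie close together or overlap in the third.

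The other members with small p-values over the whole section were lower in HF. Mat2a, the catalytic subunit that makes S-adenosylmethionine, had 88.4 and 88.3 CPM in MF and 82.3 and 72.8 CPM in HF, a log2 fold change of -0.20 ± 0.08 (adjusted p = 0.716). Shmt1 had 3.64 and 4.05 CPM in MF and 2.34 and 3.32 CPM in HF (-0.44 ± 0.21, adjusted p = 0.726). These did not overlap between diets, yet no adjusted p came near the threshold. Without HF replicate 1, Mat2a was called at -0.28, and without HF replicate 2, Shmt1 was called at -0.73, in the same fits with 1166 and 840 genes called in all.

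Mthfd1 had 25.9 and 24.2 CPM in MF and 20.8 and 23.1 CPM in HF (-0.20 ± 0.10, adjusted p = 0.726). Ggh had 33.3 and 33.7 CPM in MF and 32.3 and 28.7 CPM in HF (-0.14 ± 0.08, adjusted p = 0.748). In the same sections the summed oligodendrocyte markers had 26372 and 27538 CPM in MF and 21849 and 23454 CPM in HF. The part of this difference in the lower estimates was not tested.

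In the cortex, 0 of 29 tested members were called by edgeR, where 0.0592% of all genes were, and 3 had an unadjusted p under 0.05, as did 7.83% of all genes. Ggh had 24.2 and 24.5 CPM in MF and 19.4 and 18.9 CPM in HF (-0.33 ± 0.11, adjusted p = 0.528). Shmt1 had 2.54 and 2.66 CPM in MF and 1.65 and 1.56 CPM in HF, at adjusted p = 0.612, and Mthfd1 had 25.5 and 21.7 CPM in MF and 18.4 and 19.7 CPM in HF, at adjusted p = 0.616. All 3 enzymes had lower values in both HF sections, as did 8 of the 29 members (27.6%) and 18.9% of all genes. The oligodendrocyte markers in the cortex ran from 11884 to 12736 CPM in MF and from 9437 to 10351 CPM in HF, and their part in these values was not tested.

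In the hippocampus, 0 of 28 members were called (0.128% of all genes) and 1 had an unadjusted p under 0.05 (9.32% of all genes). This was Mat2a, with 90.3 and 84.2 CPM in MF and 72.5 and 76.4 CPM in HF (adjusted p = 0.523). The oligodendrocyte markers in the hippocampus had 26067 and 22367 CPM in MF and 17837 and 16544 CPM in HF, and their part in this value was not tested. Folr1 had 12.2 and 12.5 CPM in MF against 5.26 and 11.1 CPM in HF (adjusted p = 0.584), opposite to its direction in the whole section, beside choroid plexus markers of 2635 and 1753 CPM in MF and 1590 and 2026 CPM in HF. Without HF replicate 2 the Folr1 estimate there was -1.23, on the single remaining HF section. Mtr had 26.9 and 33.5 CPM in MF and 31.8 and 38.7 CPM in HF, which overlap (adjusted p = 0.622).

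In the thalamus, 0 of 30 members were called (0% of all genes), and 1 had an unadjusted p under 0.05 (7.05% of all genes). Ahcyl2 had 172 and 160 CPM in MF and 139 and 137 CPM in HF, a log2 fold change of -0.28 ± 0.09 (adjusted p = 0.647). With either HF section left out in turn, the estimate was again -0.28, each time on a single HF section. Mat2a had 89.1 and 84.7 CPM in MF and 76.5 and 73.0 CPM in HF, and Mthfd1 had 21.7 and 22.6 CPM in MF and 18.8 and 17.8 CPM in HF. All 3 were lower in both HF sections, as were 8 of the 30 members (26.7%) and 18.9% of all genes. Oligodendrocyte markers in the thalamus had 28615 and 30375 CPM in MF and 23819 and 24325 CPM in HF. Over the tested regions Ahcyl2 was itself lowest in the white matter, at 144 CPM. The part of the oligodendrocyte markers in these values was not tested.

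In the hypothalamus, 0 of 29 members were called (0% of all genes) and 0 had an unadjusted p under 0.05 (6.45% of all genes). The smallest p belonged to Mat2a, with 102 and 107 CPM in MF and 94.4 and 88.7 CPM in HF (adjusted p = 0.761). Oligodendrocyte markers in the hypothalamus had 19883 and 20135 CPM in MF and 19680 and 18776 CPM in HF, and their part was not tested. Mthfd2l, whose level was highest in this region, had a log2 fold change of -0.26 (adjusted p = 0.766). The finer cluster in which it was highest, led by Agrp and Ghrh, held 261 and 162 spots in MF and 131 and 59 in HF, and the part of this in its values was not tested. Ggh had 41.1 and 42.9 CPM in MF and 40.3 and 33.6 CPM in HF. Mat2a thus had lower values in both HF sections in the hippocampus, thalamus and hypothalamus, which come from the same 4 sections and are not separate evidence. Such lower values were found for 19.4% of all genes in the hippocampus and 18.7% in the hypothalamus.

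In the striatum, 0 of 23 members were called (0.0719% of all genes), with 0 at an unadjusted p under 0.05 (6.29% of all genes). Slc46a1 had 5.62 and 4.11 CPM in MF and 10.3 and 8.14 CPM in HF (adjusted p = 0.842). Mat2b had 187 and 201 CPM in MF and 144 and 183 CPM in HF, and Gldc had 10.6 and 4.11 CPM in MF and 6.41 and 5.27 CPM in HF. The first 2 did not overlap between diets, and Gldc did. Both HF sections lay above both MF sections for 2 of the 23 members (8.7%) and 17.8% of all genes. They lay below for 5 members (21.7%) and 17.9% of all genes. Oligodendrocyte markers in the striatum had 32612 and 29744 CPM in MF and 28326 and 25889 CPM in HF, and their part in these values was not tested.

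In the white matter, 0 of 27 members were called (0.0162% of all genes), and 1, Shmt1, had an unadjusted p under 0.05 (5.12% of all genes). Its values of 7.84 and 8.46 CPM in MF and 0.853 and 5.53 CPM in HF rest on as few as 1 UMI in a section (-0.95, adjusted p = 0.936). Aldh1l1 had 44.1 and 41.9 CPM in MF and 55.5 and 54.5 CPM in HF (adjusted p = 0.936). Mthfd1l had 21.1 and 17.3 CPM in MF and 14.5 and 14.1 CPM in HF (adjusted p = 0.936). These 3 did not overlap between diets, in different directions. Both HF sections lay above both MF sections for 3 of the 27 members (11.1%) and 17.1% of all genes. They lay below for 6 members (22.2%) and 17.1% of all genes. Oligodendrocyte markers in the white matter had 90103 and 108528 CPM in MF and 107472 and 80713 CPM in HF, which overlap.

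In the choroid plexus, 0 of 13 tested members were called, where 0.161% of all genes were, and 3 had an unadjusted p under 0.05, where 10% of all genes did. Mat2b had 213 and 199 CPM in MF and 125 and 123 CPM in HF, a log2 fold change of -0.65 ± 0.21 (adjusted p = 0.184). Folr1 was at 0.41 ± 0.16 (adjusted p = 0.313) and Ggh at 0.48 ± 0.23 (adjusted p = 0.466), with the section values given above. Ggh overlapped between diets, and the other 2 did not. Of all genes tested there, 20.3% had both HF sections above both MF sections and 18.7% had both below.

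Over these same spots the choroid plexus markers had 181358 and 207111 CPM in MF and 245024 and 241865 CPM in HF. Neuron markers had 2246 and 2143 CPM in MF and 1438 and 1259 CPM in HF, and oligodendrocyte markers had 17937 and 13447 CPM in MF and 12679 and 10821 CPM in HF. Marker levels of the choroid plexus were thus higher, and those of the tissue around it lower, in both HF sections, and the part of this in the values of Mat2b and Folr1 was not tested. Per 1000 marker UMIs, Folr1 had 5.87 and 4.82 in MF and 5.40 and 5.22 in HF choroid plexus spots, which overlap. The medial habenula, which lies beside the ventricle, had Folr1 at 43.0 and 42.6 CPM in MF and 72.0 and 83.0 CPM in HF, beside choroid plexus markers of 7594 and 7146 CPM in MF and 12640 and 14122 CPM in HF.

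Whether the diet difference of a gene varied among the 6 neural regions was tested in one model with the section as a block. Of all 13657 genes 2 were called, or 0.0146%, and 0 of 30 members were. Aldh1l1 had the smallest p of the members (adjusted p = 0.762).

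Genes of neighbouring pathways were read from the same fit. Of 72 listed genes of pterin and cobalamin handling, serine, purine and pyrimidine synthesis, methionine salvage, transsulfuration products, and choline and betaine oxidation, 65 could be tested over the whole section, 0 were called by edgeR and 1 had an unadjusted p under 0.05. Of these, 28 had a higher and 37 a lower estimate in HF, with a median log2 difference of -0.02. The gene with the small p was Qdpr, which regenerates tetrahydrobiopterin, at -0.24 ± 0.08 (adjusted p = 0.696). Pcbd1, of the same recycling, had 0.18. Of cobalamin handling, Mmab had -0.21 and the carrier Tcn2 0.05, and of serine synthesis, Psat1 had -0.14 and Phgdh -0.08. Of purine synthesis, Adss had -0.14 and Impdh1 0.10, and of methionine salvage, Mri1 had -0.14 and Mtap -0.12. Cdo1, of cysteine oxidation, had 0.16 and Gclc, of glutathione synthesis, -0.14. Aldh7a1, of betaine synthesis, had -0.12, and Dld, a subunit of the glycine cleavage system, had 0.04. None of these log2 fold changes passed the test.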

How the data were processed

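The data are UMI counts per gene and spot from 4 Visium sections. The deposited counts were made by the authors with Space Ranger 2.0.0 on the mm10 build, and the deposited score used here is Moran's I from the same software. Columns with the authors' p-values were not used. Sections were grouped by the labels, 2 per diet. The p-values of the diet tests rest on the spread between these sections, with variance estimates that draw on all genes. Those of the region levels and of region by diet rest on the spread left between regions within sections.

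Spots with at least 500 UMIs and 250 genes were kept. They were clustered on 2000 variable genes without the members, related lists and mitochondrial genes (30 components, 20 neighbours, Leiden resolution 1, leidenalg 0.10.2), and clusters with at least 3 markers among their 50 leading genes were named. No doublet caller was run, since a spot is an area.

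Counts were summed per section and region and tested with edgeR 4.0.16 (quasi-likelihood test, TMM, filterByExpr, Benjamini-Hochberg over all genes tested, R 4.3.3). Diet calls needed an adjusted p under 0.05 and 1.2-fold, region calls 1.5-fold. The F test of region by diet and the region levels had the section as a block. Fold changes are log2 and carry approximate standard errors, and CPM carry SDs. Each standard error is the absolute log2 fold change divided by the square root of the F statistic of its test. Section totals of 34983708 to 90098381 UMIs limit low genes, and the floor for a count of 0 is 3 counts, for counting error only.

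Alternatives were DESeq2 1.42.0, scaling by library size alone, no filter on low counts, 5000 UMIs per spot, Leiden resolution 2, a replicate block and leaving out each section. Tests were run on simulated data first. In simulated whole sections the diet test recovered 56.5% of 1.5-fold and 92% of 2-fold changes. In simulated choroid plexus sums it recovered 7.5% and 32.5%, so the absence of diet calls there says little. The members, lists and tests were chosen with earlier results of these data known. Values in every section are given for members called, for the 5 members with the smallest p over the whole section, for the 3 with the smallest in each region, and for the 2 genes of each related list with the smallest p over the whole section as fold changes, except 1 that is not reported here. Genes were placed by GENCODE vM21.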

Additional observations from a re-analysis of the deposited data

How the results depend on the processing

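The diet comparisons called 0 members in the whole section and in each region under DESeq2, scaling by library size alone, no filter on low counts, thinning to 5000 UMIs per spot and the replicate block, and in each region at Leiden resolution 2. Leaving out one section moved the number of members called from 0 to between 0 and 2 in the whole section, between 0 and 1 in the hippocampus, and between 0 and 1 in the thalamus, and the calls came when 1 HF section was left, which was then assumed to vary like the MF sections. The number of genes called over the whole section, 0 in the fit reported, reached 22 with DESeq2 and 1166 without HF replicate 1. Replicate numbers do not pair the sections (r of same-numbered deviations -0.196 over 2 pairs), and under the replicate block 0 members were called and 183 genes were called in the hippocampus instead of 16. With the crossed pairing, which was chosen after seeing the data, 91 genes were called in the thalamus instead of 0. Of the 276 alternative values for the 26 named member results, 268 kept their direction and side of the threshold, 7 passed it and 1 reversed, Mthfd1 in the cortex at 0.0112 after thinning; the cause was not tested. The number of members called higher in a region was, after thinning, 2 in cortex, 1 in hippocampus, 4 in thalamus, 0 in white matter and 6 in choroid plexus. It was 4 in the thalamus with no filter on low counts and 5 in the hypothalamus with scaling by library size alone, under which the median of all genes moved to -0.23 in the choroid plexus and 0.14 in the hypothalamus. Leaving out one section gave 1 to 2 for cortex, 2 to 2 for hippocampus, 2 to 3 for thalamus, 1 to 2 for white matter and 8 to 11 for choroid plexus. Without the choroid plexus, an alternative chosen after seeing the data, cortex had 1, hippocampus 3, thalamus 2, hypothalamus 3, striatum 0 and white matter 3. The median share of spots with a UMI was 7.54% after thinning, and 9 members had a marker list at Leiden resolution 2. Thinning leaves fewer UMIs, and in the choroid plexus 46 spots limit what can be called.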
